A study of Mus musculus with 8 samples.

Results

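The Shisa family was examined in RNA-seq libraries of E15.5 mouse cortex. Its members were the rows of the count files whose symbol is Shisa2, Shisa3, Shisa4, Shisa5, Shisa6, Shisa7 or Shisa9, which gave 7 of 23284 gene symbols. No other symbol in the files starts with Shisa. The family was chosen by the measured level of Shisa4, which is lower in the libraries labelled ErbB4-/-, so the values of Shisa4 in that comparison are given as a description and carry no test. The other 6 members were taken because they belong to the family, although earlier results of these data were known.

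Shisa proteins are small single-pass transmembrane proteins with a cysteine-rich region outside the cytoplasm and a proline-rich tail inside it. The founding members, Shisa2 and Shisa3, are known for holding Frizzled and FGF receptors back in the endoplasmic reticulum, which lowers the response of a cell to Wnt and FGF. Shisa6, Shisa7 and Shisa9 are brain proteins that join AMPA-type glutamate receptors as auxiliary subunits (the names CKAMP52, CKAMP59 and CKAMP44 are also used), and Shisa7 also joins GABA-A receptors. Shisa5, also called Scotin, is a p53 target of the endoplasmic reticulum that is linked to apoptosis. Shisa4 is the member whose role is least described.

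The libraries came from cortex of mouse embryos at E15.5, 4 labelled ErbB4+/+ (wild type) and 4 labelled ErbB4-/- (ErbB4 KO). The meninges and ganglionic eminences had been removed. The paper names C57BL/6 for its lines made by CRISPR/Cas9 and states no background for the ErbB4-/- line. ErbB4 knockouts of this kind survive because a transgene under the cardiac alpha-MHC promoter expresses ErbB4 in the heart, and the mouse lines were bred as separate homozygous colonies, so genotype and colony cannot be told apart. The labels do not say whether a library is 1 embryo or which litter it came from, so the p-values measure the spread between these libraries. The comparison asks which genes of the embryonic cortex change when ErbB4 is lost.

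Between 28205703 and 48871480 reads were counted per library, of which 6656 to 13079 fell on the 7 Shisa genes. Levels are given as CPM, the counts scaled to library size with TMM normalization, and a difference is the log2 fold change of ErbB4-/- over ErbB4+/+ from edgeR's quasi-likelihood fit over 14696 genes. The targeted gene, Erbb4, was not lower in the libraries labelled ErbB4-/-, with 20.7 to 24.6 CPM against 8.99 to 25.3 CPM (log2 fold change 0.28, SE 0.23, edgeR adjusted p = 0.812). Counts are summed over the whole gene and do not show which exons were read. Xist was at 983 to 1686 CPM in ErbB4+/+ replicates 1 to 3 but at 3.47 CPM in ErbB4+/+ replicate 4 and 2.70 to 3.82 CPM in the ErbB4-/- libraries, and the Y-linked Ddx3y showed the reverse. Sex-linked pattern and genotype are therefore almost the same split, with ErbB4+/+ replicate 4 as the exception. The lowest Erbb4 level, 8.99 CPM, was that of ErbB4+/+ replicate 1. The values of Erbb4, of the tested members and of the gene lists are also given without that library. Without it the log2 fold change of Erbb4 was 0.06 (SE 0.11), and without ErbB4+/+ replicate 3 it was 0.48 (SE 0.22). Cortical neuron markers summed to 2689 to 3055 CPM in ErbB4+/+ and 2615 to 2982 CPM in ErbB4-/- libraries, and all 6 passed the filter, of which 1 had an unadjusted p under 0.05 (5.53% of all tested genes). The 6 meningeal fibroblast markers summed to 12.5 to 20.9 CPM over all libraries, with Lum below 1 CPM. In bulk tissue, fewer cells of a type and less RNA per cell cannot be told apart.

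The members fall into kinds by the end of their coding sequence, and these ends are shown because the auxiliary subunits of glutamate receptors share theirs. Each line is the last 36 coding nucleotides before the stop codon on the coding strand, from GENCODE transcripts of NCBIM37 (mm9), with the final 4 codons in capitals.
Shisa6: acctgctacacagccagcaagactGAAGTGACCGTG
Shisa7: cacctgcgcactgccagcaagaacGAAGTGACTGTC
Shisa9: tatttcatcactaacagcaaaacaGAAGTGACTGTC
Shisa2: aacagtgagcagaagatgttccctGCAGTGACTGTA
Shisa3: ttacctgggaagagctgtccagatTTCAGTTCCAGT
Shisa5: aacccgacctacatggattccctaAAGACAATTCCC

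The final 4 codons of Shisa6, Shisa7 and Shisa9 encode the same residues, with the same bases in Shisa7 and Shisa9 and other bases in Shisa6, and no other member shares all 4. The last 3 codons of Shisa2 also encode the same residues as those of the auxiliary subunits. The tail of the auxiliary subunits is known as the part that binds PDZ domains of postsynaptic scaffold proteins. The ends lie at chr11:66030977-66031012 (minus strand), chr7:4781240-4781275 (minus strand) and chr16:12267858-12267893 (plus strand) for these 3 genes, each within 1 coding exon. The ends of Shisa2, Shisa3 and Shisa5 lie on the plus strand at chr14:60248987-60249022, chr5:68002676-68002711 and chr9:108959184-108959219, also within 1 exon each.

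Shisa4 and Shisa5 carry another feature in the tail, the proline-tyrosine motif that WW-domain ubiquitin ligases of the Nedd4 kind bind. It was searched in frame, on the coding strand only, as the codons CCN, CCN, NNN and TAN in a row, and the matches are in capitals.
Shisa4: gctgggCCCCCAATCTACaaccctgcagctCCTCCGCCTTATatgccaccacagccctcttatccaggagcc
Shisa5: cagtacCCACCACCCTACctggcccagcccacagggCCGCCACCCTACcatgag

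The Shisa4 stretch runs to the last coding nucleotide, spans 2 exons and lies on the minus strand within chr1:137268530-137268801. The Shisa5 stretch lies at chr9:108958956-108959009 on the plus strand. Shisa4 had 2 matches, from codons 176 and 184 of 197, and Shisa5 had 2, from codons 199 and 209 of 236. Shisa3, Shisa6 and Shisa7 had 1 match each, Shisa2 and Shisa9 had 0, and of 21370 genes with a complete coding sequence 5.97% held at least 1. A match is a description of the letters and was not tested for binding. Over the protein-coding transcripts of the 7 genes, 0 stretches of 50 nucleotides, the length of the reads, occurred in those of any other gene. Reads within the searched transcripts were therefore not split between family members. Exon sequence found only in other transcripts was not searched. For Shisa4 1714 stretches were searched, while the union of its exons is 2418 nucleotides.

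Shisa4, ENSMUSG00000041889, lies on the minus strand of chromosome 1 from 137267634 to 137271814 and is the shortest gene of the family, at 4181 nucleotides. The ErbB4+/+ libraries, in replicate order, held 1073, 1093, 1324 and 1268 reads of it, or 38.3, 35.1, 34.5 and 36.1 CPM. The ErbB4-/- libraries held 1141, 1018, 1062 and 663 reads, or 23.2, 29.2, 27.2 and 21.1 CPM. Every ErbB4-/- library lay below every ErbB4+/+ library, and the ErbB4+/+ libraries lay closer together. The means were 35.98 ± 1.66 CPM (SD, n = 4) and 25.2 ± 3.72 CPM (SD, n = 4), a ratio of 0.699. The fitted log2 fold change was −0.52 (SE 0.099). Of all tested genes, 1.48% had every ErbB4-/- library below every ErbB4+/+ library, and nothing is read from that share here because the rule used this contrast.

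The log2 fold change of Shisa4 in other sets of libraries is likewise a description. Leaving out ErbB4+/+ replicate 1 gave a log2 fold change of −0.49, and with the trend of each library with transcript length removed it was also −0.49. With ErbB4+/+ replicate 4 as the only ErbB4+/+ library, so that all 5 libraries had low Xist, it was −0.52 (SE 0.16), where the single library is assumed to vary like the others. With other single libraries left out it lay between −0.59 without ErbB4-/- replicate 2 and −0.45 without ErbB4-/- replicate 4.

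**Figure D1:**
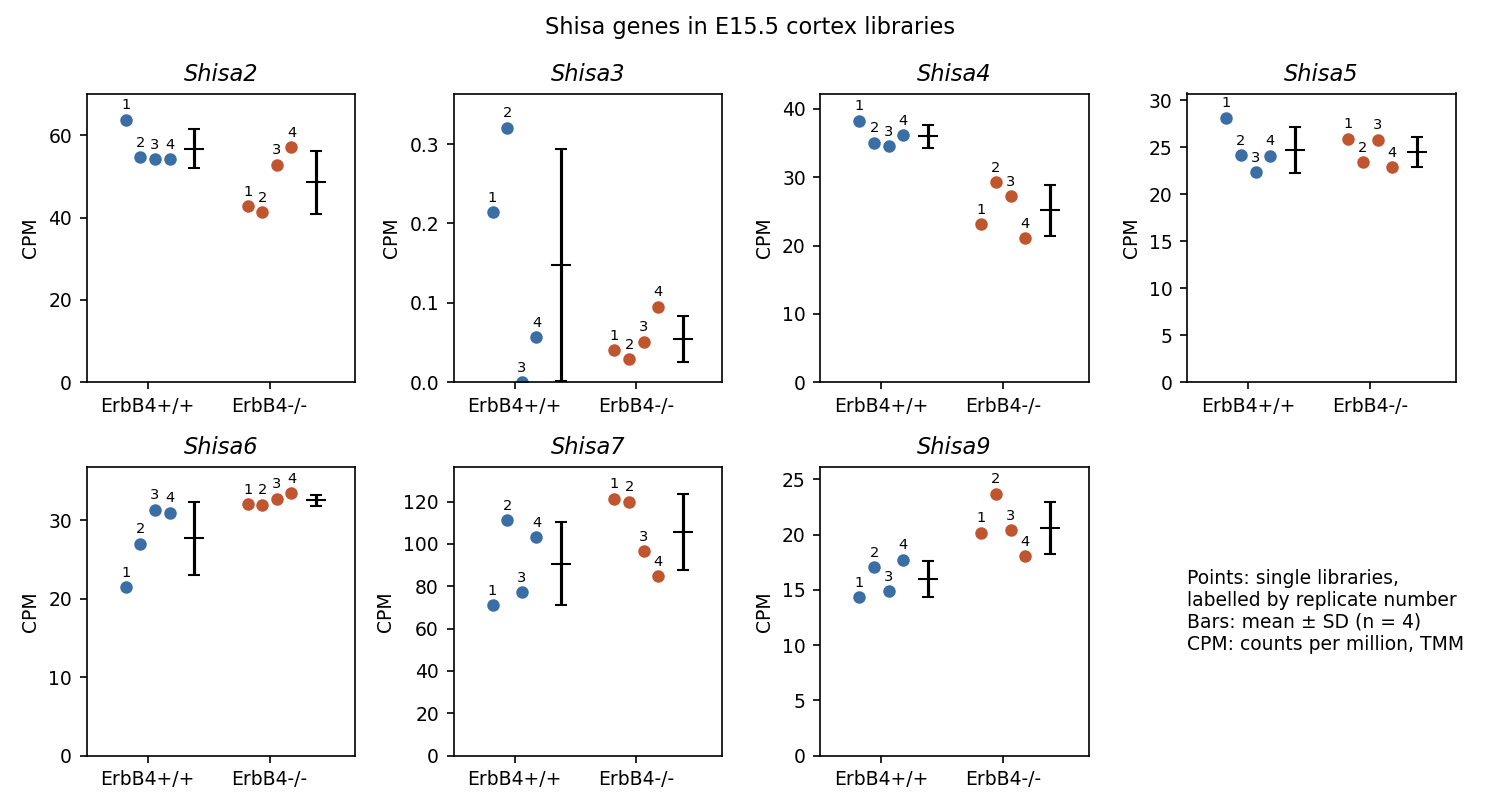
CPM (y axis, from 0) of each Shisa gene in the 4 ErbB4+/+ (blue) and 4 ErbB4-/- (orange) libraries, numbered by replicate, with mean and SD beside each group. In Shisa4 the ErbB4-/- libraries reach at most 29.2 CPM and the ErbB4+/+ libraries start at 34.5 CPM; Shisa6 and Shisa9 also do not overlap, in the other direction and by a small gap.

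Of the 6 other members, 5 passed the filter on low counts and 0 had an adjusted p under 0.05 in edgeR's test, in DESeq2 or in limma-voom. The background of that call was 0.0272%, 4 of 14696 genes. At an unadjusted p under 0.05 there was 1 member, Shisa9, against 5.53% of all genes. By sign, 3 of the 5 were higher in ErbB4-/- libraries (Shisa6, Shisa7 and Shisa9, the auxiliary subunits), where 49.2% of all tested genes were. The other 2 were lower (Shisa2 and Shisa5). The libraries of the genotypes did not overlap in Shisa6 and Shisa9, both higher in ErbB4-/- libraries, and 1.86% of all tested genes showed no overlap in that direction (3.34% in either).

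Shisa9, ENSMUSG00000022494, is the AMPA receptor auxiliary subunit CKAMP44 and lies on the plus strand of chromosome 16 from 11984674 to 12267896. In replicate order, the ErbB4+/+ libraries held 14.3, 17.1, 14.9 and 17.7 CPM and the ErbB4-/- libraries 20.2, 23.7, 20.4 and 18.1 CPM. The groups did not overlap, but ErbB4-/- replicate 4 lay just above ErbB4+/+ replicate 4. The means were 16.01 ± 1.65 and 20.6 ± 2.33 CPM (SD, n = 4 each), a log2 fold change of 0.36 (SE 0.10). Over all genes this did not pass (unadjusted p = 0.00427, edgeR adjusted p = 0.81, and 0.202 to 1.00 across the alternatives). The log2 fold change was 0.32 without ErbB4+/+ replicate 1 and 0.22 among the 5 libraries with low Xist.

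Shisa6, ENSMUSG00000053930, is the AMPA receptor auxiliary subunit CKAMP52 and spans 314240 nucleotides of the minus strand of chromosome 11 from 66025227 to 66339466. In replicate order, the ErbB4+/+ libraries held 21.4, 27.0, 31.3 and 30.9 CPM and the ErbB4-/- libraries 32.03, 31.96, 32.7 and 33.4 CPM. The ErbB4-/- libraries lay within a narrow range just above ErbB4+/+ replicates 3 and 4, and the ErbB4+/+ group was spread downward by replicates 1 and 2. The log2 fold change was 0.23 (SE 0.11, edgeR adjusted p = 0.81). Without ErbB4+/+ replicate 1 it was 0.13, and among the 5 libraries with low Xist 0.07.

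Shisa7, ENSMUSG00000053550, an auxiliary subunit of both AMPA and GABA-A receptor complexes, lies on the minus strand of chromosome 7 from 4777154 to 4796298. In replicate order, the ErbB4+/+ libraries held 71.1, 111, 77.3 and 103 CPM and the ErbB4-/- libraries 121, 120, 96.5 and 84.7 CPM. It was the most variable tested member, with a ratio of 1.56 between the highest and lowest ErbB4+/+ library, and the groups overlapped. The log2 fold change was 0.22 (SE 0.15, edgeR adjusted p = 0.81), and it was 0.12 without ErbB4+/+ replicate 1 and 0.03 among the 5 libraries with low Xist. In the annotation 504 nucleotides of its exons, 7.59%, overlap the model Gm15525, and the libraries do not keep the strand.

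Shisa2, ENSMUSG00000044461, the receptor-retaining member, lies on the plus strand of chromosome 14 from 60244118 to 60250495. In replicate order, the ErbB4+/+ libraries held 63.8, 54.7, 54.1 and 54.1 CPM and the ErbB4-/- libraries 42.8, 41.3, 52.9 and 57.1 CPM. Within ErbB4-/- the libraries fell into a lower pair, replicates 1 and 2, and a higher pair, of which replicate 4 lay above 3 of the ErbB4+/+ libraries. The means were 56.7 ± 4.74 and 48.5 ± 7.69 CPM (SD, n = 4 each), a log2 fold change of −0.22 (SE 0.11, edgeR adjusted p = 0.81). It was −0.16 without ErbB4+/+ replicate 1, the highest library, and −0.32 without ErbB4-/- replicate 4, when the remaining libraries no longer overlapped, as in 4.48% of all tested genes in that direction.

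Shisa5, ENSMUSG00000025647, the p53 target of the endoplasmic reticulum, lies on the plus strand of chromosome 9 from 108941079 to 108960238 and has 16 annotated transcripts. In replicate order, the ErbB4+/+ libraries held 28.2, 24.2, 22.3 and 24.1 CPM and the ErbB4-/- libraries 25.9, 23.4, 25.8 and 22.9 CPM. The groups covered nearly the same range, and the log2 fold change was −0.01 (SE 0.086, edgeR adjusted p = 0.987). It was 0.06 without ErbB4+/+ replicate 1.

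Shisa3, ENSMUSG00000050010, the other receptor-retaining member, lies on the plus strand of chromosome 5 from 67999122 to 68014791 and was removed by the filter. Its reads numbered 6, 10, 0 and 2 in the ErbB4+/+ libraries and 2, 1, 2 and 3 in the ErbB4-/- libraries, in replicate order. More than 3 reads were found in 2 libraries, and a count of 3 corresponds to 0.0614 to 0.106 CPM at these depths, so no fold is given. Of its annotated exons 138 nucleotides, 2.9%, overlap those of Atp8a1, and the libraries do not keep the strand. An exact permutation test on log2 CPM gave p = 0.371 (smallest possible 0.0286), and no conclusion on the genotypes is drawn from so few reads.

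**Figure D2:**
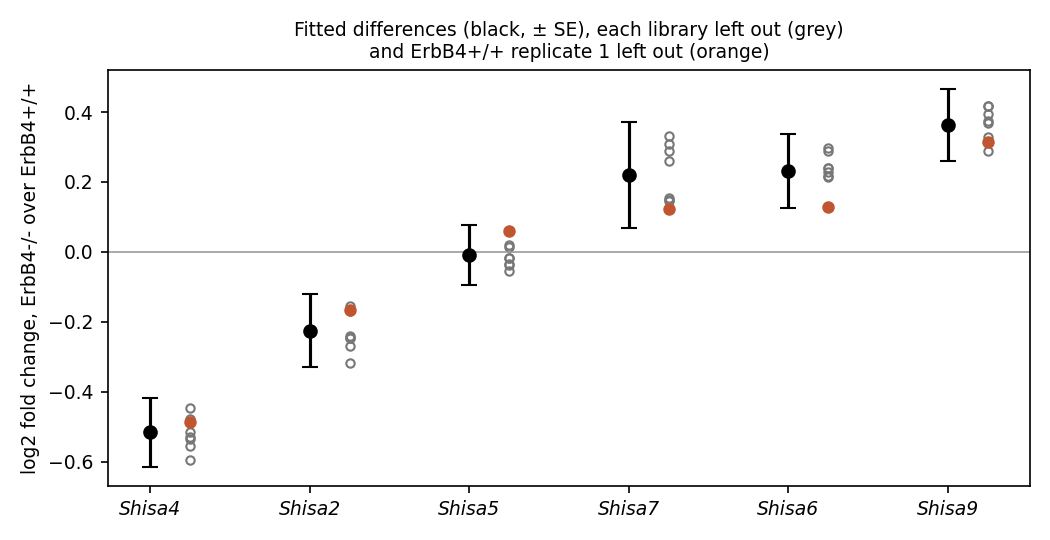
Fitted log2 fold change of ErbB4-/- over ErbB4+/+ (y axis) with its SE (black) for the 6 members that passed the filter, beside the values with each library left out (grey) and with ErbB4+/+ replicate 1 left out (orange). Shisa4 stays between −0.59 and −0.45 in all of these, and the value of Shisa6 without ErbB4+/+ replicate 1 (0.13) is the lowest of its set.

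Levels of the members were compared as CPM per kb of exon, over all 8 libraries. Shisa2 had a median of 17.2 CPM per kb (13.1 to 20.3), Shisa7 15.05 (10.7 to 18.3), Shisa9 14.0 (11.2 to 18.6) and Shisa4 13.2 (8.71 to 15.8). The ranges of these 4 neighbours in the order overlapped, so their order is not separated by the spread between libraries. Shisa5 followed at 7.53 CPM per kb (6.97 to 8.79). Its range overlapped that of Shisa4 only through a low ErbB4-/- library, and Shisa4 was the higher of the pair in 8 of 8 libraries. Shisa6 had 4.25 CPM per kb (2.88 to 4.49) and Shisa3 0.0114 CPM per kb (0 to 0.0675), and both lay apart from the member above them. Within ErbB4+/+ libraries Shisa4 had the second highest median, 14.7 CPM per kb, and within ErbB4-/- libraries the fourth, 10.4 CPM per kb. The lengths set this order in part, because the only annotated transcripts of Shisa9 are coding sequence alone, at 1275 nucleotides, and Shisa4 and Shisa5 have longer unions of exons (2418 and 3204 nucleotides) than longest transcripts (1763 and 1852). With the longest transcript as the length, Shisa4 came first at 18.1 CPM per kb, and Shisa5, Shisa6 and Shisa3 kept the last places.

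**Figure D3:**
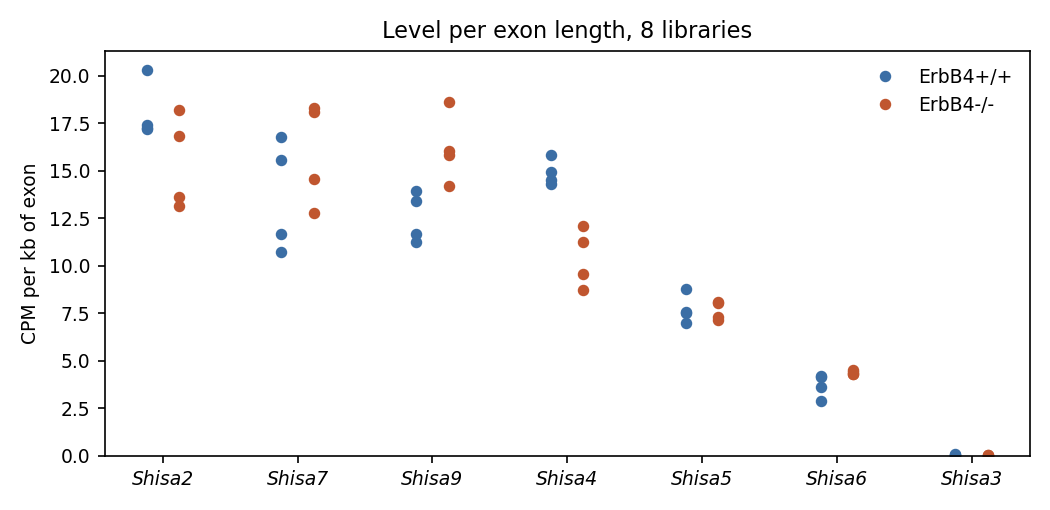
CPM per kb of exon (y axis, from 0) of each member in ErbB4+/+ (blue) and ErbB4-/- (orange) libraries, ordered by the median over 8 libraries. Shisa2, Shisa7, Shisa9 and Shisa4 overlap at about the same level, Shisa5 and Shisa6 are lower, and Shisa3 is near 0.

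The genes around Shisa4 on chromosome 1 were examined because position was not part of the choice of the family. Within 500 kb of Shisa4 the annotation holds 18 genes of the files, of which 10 were tested. In edgeR's test 0 of the 10 had an adjusted p under 0.05, where 4 of 14696 genes did. In DESeq2 1 did, Ube2t, where 24 genes passed in all. At an unadjusted p under 0.05 there were 4, all lower in ErbB4-/- libraries, where 2.52% of all tested genes were. In 4 of the 10, Ube2t, Rnpep, Timm17a and Csrp1, every ErbB4-/- library lay below every ErbB4+/+ library, against 1.48% of all tested genes, and in 0 did every ErbB4-/- library lie above. The median log2 fold change of the 10 was −0.19, against −0.0022 for all genes, and 4 of the 10 were higher by sign, where 49.2% of all tested genes were.

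Lmod1, the gene of a leiomodin of muscle, ends 2.99 kb from the end of Shisa4 on the opposite strand. In replicate order, the ErbB4+/+ libraries held 0.606, 1.48, 1.07 and 1.28 CPM and the ErbB4-/- libraries 0.284, 0.459, 0.666 and 0.254 CPM, with an overlap at ErbB4+/+ replicate 1. Its log2 fold change was −1.41 (SE 0.36, edgeR adjusted p = 0.736). Ipo9, which encodes a nuclear import receptor and ends 7.08 kb from the start of Shisa4 on the same strand, had 305 ± 21.0 CPM (SD, n = 4) in ErbB4+/+ and 326 ± 17.6 CPM (SD, n = 4) in ErbB4-/- libraries, with overlapping groups. The closest neighbours on either side thus gave values of opposite sign.

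Rnpep, an aminopeptidase gene 87.0 kb away, had 63.2 to 76.4 CPM in ErbB4+/+ and 51.8 to 59.9 CPM in ErbB4-/- libraries (log2 fold change −0.26, SE 0.076, edgeR adjusted p = 0.81). Timm17a, a gene of mitochondrial protein import, had 19.9 to 23.6 against 17.7 to 19.6 CPM (log2 fold change −0.15). Ube2t, a ubiquitin-conjugating enzyme gene of DNA repair 397 kb away, had 7.95 to 13.1 against 4.89 to 7.04 CPM (log2 fold change −0.75, SE 0.18), with an adjusted p of 0.589 in edgeR and 0.0297 in DESeq2. Csrp1, which encodes a LIM-domain protein and lies 345 kb away on the other side, had 22.7 to 33.5 against 15.2 to 21.2 CPM (log2 fold change −0.56, SE 0.14, adjusted p = 0.736). Phlda3, Ppp1r12b, Arl8a and Lgr6 had log2 fold changes of −0.23, 0.11, 0.08 and 0.21 with overlapping groups.

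The count at an unadjusted p under 0.05 was 1 with Xist as a covariate, and 4 or 5 with any single library left out. The share of all tested genes in these fits is not given, so the changes in count cannot be set against a background. Without ErbB4+/+ replicate 1, 5 of the 10 genes lay wholly lower, against 2.80% of all genes. Without ErbB4-/- replicate 3, 6 did, against 2.29%, and without any other single library 4 did, against 2.05% to 4.84%. In windows chosen after the data were seen, the share of wholly lower genes was 40% of 5 genes within 250 kb, 22.7% of 22 within 1000 kb and 12.8% of 39 within 2000 kb, and 3 of the 39 lay wholly higher. Of all tested genes 1.48% lay wholly lower and 1.86% wholly higher. The part of position in the Shisa4 difference was not tested.

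**Figure D4:**
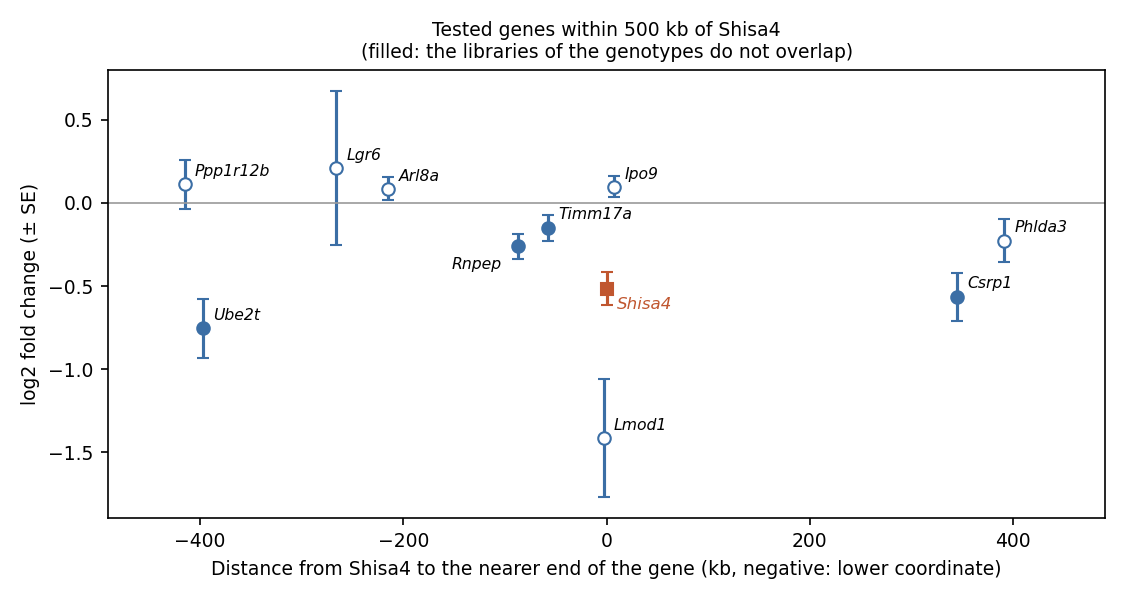
Log2 fold change with its SE (y axis) of the 10 tested genes within 500 kb of Shisa4 against their distance from it in kb (x axis), with Shisa4 in orange. Filled points, whose genotypes do not overlap, lie at −0.15 to −0.75 on both sides of Shisa4, and Arl8a, Ipo9, Lgr6 and Ppp1r12b lie above 0.

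The genes that work with Shisa proteins were followed as lists written by hand, and none of their genes had an adjusted p under 0.05 in edgeR's test, in DESeq2 or in limma-voom. Of the AMPA receptor subunits, auxiliary subunits and partners of Shisa6, Shisa7 and Shisa9, 21 of 22 were tested, 18 were higher by sign, where 49.2% of all tested genes were, and the median log2 fold change was 0.07. At an unadjusted p under 0.05 1 was higher, where 3% of all tested genes were, and 0 were lower. That gene was Cnih3, a cornichon auxiliary subunit, with 49.99, 49.01, 45.4 and 51.8 CPM in ErbB4+/+ replicates 1 to 4 and 62.5, 66.5, 62.3 and 50.3 CPM in ErbB4-/- replicates 1 to 4 (log2 fold change 0.30, SE 0.085, adjusted p = 0.81). Its ErbB4-/- replicate 4 lay among the ErbB4+/+ libraries, as the lowest of its group, the place this library also took in Shisa4, Shisa5, Shisa7 and Shisa9. The median of the list was 0.02 without ErbB4+/+ replicate 1 and 0.11 without ErbB4-/- replicate 4, and it was 0.03 among the 5 libraries with low Xist and 0.015 with Xist as a covariate.

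Of the GABA-A receptor subunits and the synaptic proteins Gphn and Nlgn2, listed as partners of Shisa7, 14 of 15 were tested, all 14 were higher by sign, against 49.2% of all tested genes, and the median log2 fold change was 0.16. It was 0.10 without ErbB4+/+ replicate 1 and 0.26 without ErbB4+/+ replicate 2. At an unadjusted p under 0.05 3 were higher, against 3% of all tested genes, and 0 were lower. Gabra5, which encodes an alpha subunit, was among the 3, with 24.96 to 29.5 CPM in ErbB4+/+ and 27.7 to 34.7 CPM in ErbB4-/- libraries. The genotypes overlapped, and the fitted difference of 0.22 on the log2 scale (SE 0.087) had an adjusted p of 0.81 in edgeR.

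Of the 16 Frizzled, LRP and FGF receptor genes, the kinds of receptor that Shisa2 and Shisa3 hold back, all were tested. By sign 7 were higher, where 49.2% of all tested genes were, and the median was −0.04. With single libraries left out it lay between −0.10 (without ErbB4+/+ replicate 1) and −0.0056 (without ErbB4+/+ replicate 4), and it was −0.11 among the 5 libraries with low Xist. None had an unadjusted p under 0.05, where 5.53% of all tested genes did. The most abundant, Fzd3 and Fgfr1, had log2 fold changes of 0.06 (SE 0.12) and 0.10 (SE 0.062), and that of Fzd3 was −0.05 without ErbB4+/+ replicate 1. Of the 20 genes of p53 and its targets, the setting of Shisa5, 19 were tested and the median was 0.00052 (−0.02 without ErbB4+/+ replicate 1). At an unadjusted p under 0.05 there were 0, against 5.53% of all tested genes. Trp53inp1, a p53 target, had 184 ± 12.5 against 184 ± 22.6 CPM (SD, n = 4 each). Of the 8 genes of WW-domain proteins, the binders of the motif shown for Shisa4, all were tested. At an unadjusted p under 0.05 there were 0, against 5.53% of all tested genes, and the median was 0.04. It turned to −0.02 without ErbB4+/+ replicate 1 and to −0.03 with the length trend removed. The most abundant, Nedd4 and Nedd4l, had log2 fold changes of −0.02 (SE 0.082) and 0.06 (SE 0.047).

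**Figure D5:**
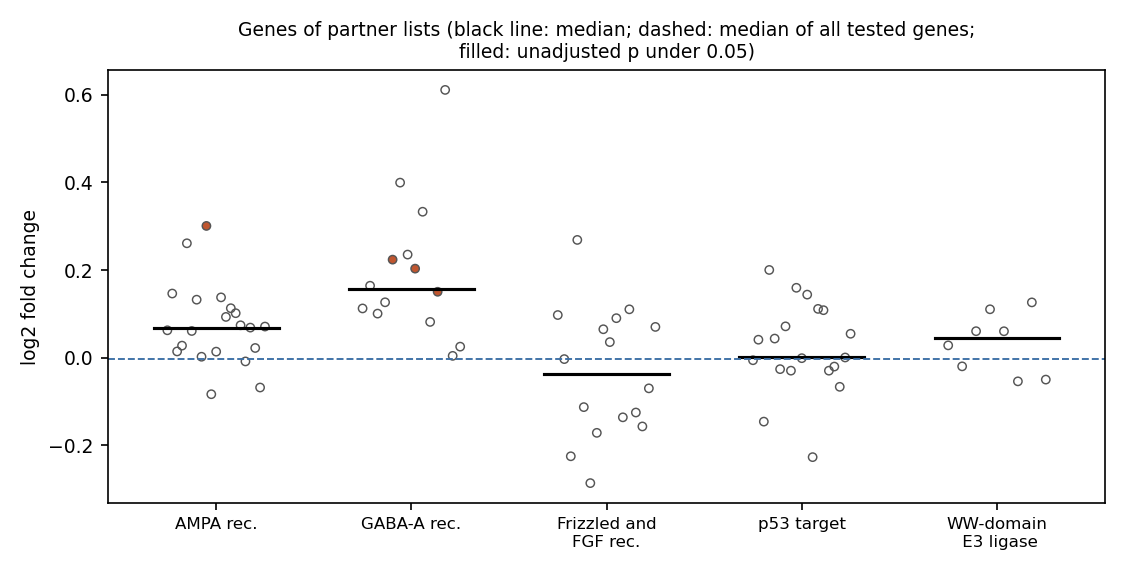
Log2 fold change (y axis) of each tested gene of the 5 partner lists, with the list median as a black line, the median of all tested genes dashed, and genes with an unadjusted p under 0.05 filled. The list of GABA-A receptor subunits and partners has the highest median, 0.16, and the Frizzled and FGF receptor genes the lowest, −0.04.

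Other cell types were followed by their markers. The summed ganglionic eminence and interneuron markers were at 468 to 636 CPM in ErbB4+/+ and 458 to 645 CPM in ErbB4-/- libraries, the microglia markers at 30.6 to 36.9 and 32.5 to 37.4 CPM and the endothelial and pericyte markers at 156 to 169 and 156 to 169 CPM. The cortical progenitor markers were at 991 to 1359 and 1038 to 1121 CPM, with 2 of 6 at an unadjusted p under 0.05 (5.53% of all tested genes), and were highest in ErbB4+/+ replicate 1, as Shisa2, Shisa4 and Shisa5 were. The red blood cell markers were lower in 3 of the 4 ErbB4-/- libraries than in any ErbB4+/+ library, at 31.8 to 56.6 CPM in ErbB4+/+ and 20.8 to 35.2 CPM in ErbB4-/- libraries, with 2 of 4 tested at an unadjusted p under 0.05 (5.53% of all tested genes) and Hbb-bh1 and Hba-a1 below 1 CPM throughout. Of the 4 cardiac muscle markers 3 were below 1 CPM throughout. The part of the progenitor and red blood cell markers in the Shisa values was not tested.

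The genes whose log2 CPM ran most closely with Shisa4 over the 8 libraries were Mmel1 (r = 0.952), Pla2g16 (r = 0.939), Agpat6 (r = 0.933), Ube2t (r = 0.908) and Mall (r = 0.905). These r are measures of likeness over the same 8 libraries, which share the split by genotype, and carry no test. Pla2g16, a phospholipase gene, had 4.84 ± 0.485 against 3.81 ± 0.404 CPM (SD, n = 4 each), and Agpat6, an acyltransferase gene of lipid synthesis, had 182 ± 1.98 against 176 ± 1.15 CPM (SD, n = 4 each). Mmel1 and Mall had means of 0.468 and 0.687 CPM in ErbB4+/+ libraries and 0.363 and 0.259 CPM in ErbB4-/- libraries. Of the 5, only Ube2t lies on chromosome 1. For Shisa9 the closest genes were Ryr3 (r = 0.991), Slc2a3 (r = 0.981) and March4 (r = 0.972), and for Shisa7 they were Pip5k1c (r = 0.989), C2cd4c (r = 0.983) and Ube2o (r = 0.979). Shisa6 ran with Wdfy2 (r = 0.989), Efcab5 (r = 0.984) and Zfp862 (r = 0.983), Shisa2 with Ppp1r17 (r = 0.973) and Dbx1 (r = 0.964), and Shisa5 with Bex4 (r = 0.980), Hspbp1 (r = 0.973) and B3gnt1 (r = 0.971). None of the closest genes of one member was also named for another.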

How the data were processed

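The authors sequenced polyA-selected, non-strand-specific libraries as single-end 50-nucleotide reads, aligned the reads by HISAT against mm9 and obtained gene totals from HTSeq-count. The deposited files hold these raw counts, and the annotation and counting mode are not given in the sources used here. The authors' deposited table of fold changes and p-values was not used. Groups came from the sample labels. The quasi-likelihood test of edgeR 4.0.16 (R 4.3.3; glmQLFit, glmQLFTest) had genotype as its only term, TMM factors and the filterByExpr defaults (count 10, total 15), and p-values were adjusted by Benjamini-Hochberg over the 14696 genes kept (threshold 0.05). The common biological coefficient of variation was 10.7%. Log2 CPM had a prior count of 2. Positions, lengths and sequences came from GENCODE on NCBIM37 (mm9), where 21709 of 23284 symbols were placed. Named genes were the members, Erbb4, Xist and Ddx3y, the tested genes within 500 kb of Shisa4, the closest 5 genes to Shisa4 and 3 to each other tested member, and list genes with an unadjusted p under 0.05 or else the most abundant 2, of which some are not reported here. Members and lists were chosen with earlier results of these data known. Alternatives were DESeq2 1.42.0, limma-voom (limma 3.58.1), other normalizations and filters, a replicate block, Xist as a covariate, the libraries with low Xist, removal of each library's length trend, and each library left out. The fits were also run on simulated data, but the outcome is not given here and nothing is read from it.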

Additional observations from a re-analysis of the deposited data

Results flagged for a closer look

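Shisa2 in ErbB4+/+ replicate 1 stood far from the other ErbB4+/+ libraries. At 63.8 CPM it was followed by 54.7, 54.1 and 54.1 CPM, and the gap to its neighbour made up 0.937 of the whole range of the group, above Dixon's 95% critical value for 4 samples. The groups of 4 examined were 16, those of the 7 members and Erbb4 in each genotype, and chance marks about 1 in 20 of such groups. The cause was not tested.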

How the results depend on the processing

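Over 18 alternatives the log2 fold change of Shisa4 lay from −0.59 to −0.45 with single libraries left out and from −0.53 to −0.49 in the other settings. None of the 5 other tested members passed 0.05 in any. Shisa5, near 0, changed sign in 8 alternatives. It was 0.0052 in limma-voom, 9.1e-06 with upper-quartile normalization and 0.00044 with Xist as a covariate. Among the 5 libraries with low Xist it was 0.025, and with the length trend removed 0.018. It was 0.061 without ErbB4+/+ replicate 1, 0.013 without ErbB4-/- replicate 2 and 0.018 without ErbB4-/- replicate 4. With any other single library left out it stayed negative, down to −0.054 without ErbB4+/+ replicate 3. The count of all genes past 0.05, 4 in the main test, was 24 in DESeq2, 1 with relative log expression, upper-quartile normalization, Xist as a covariate or the libraries with low Xist, 2 with the length trend removed, and 1 to 13 with single libraries left out. Of the genes near Shisa4 1 passed in DESeq2. With the longest transcript as the length, 3 of 7 members kept their place in the order, and 5 to 7 did with a library left out. With the replicate number as a block, 1 gene passed and Shisa4 was at −0.53. Same-numbered libraries had correlations of 0.024 to 0.135 in their deviations from the group means. ErbB4+/+ replicates 1 and 2 matched the ErbB4-/- library of the same number best, and replicates 3 and 4 did not. The labels give no litters, and these values cannot decide whether same-numbered libraries were paired. The main test did not take the numbers as pairs. The cause of these changes was not tested. For a member with few reads at this depth, such as Shisa3, no conclusion on the genotypes was drawn.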
